A study of Mus musculus with 6 samples.

Results

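The p200 genes are a mouse family that lies in tandem on chromosome 1. Their proteins carry a HIN domain, which binds DNA, and most also carry a pyrin domain, which binds other pyrin domains. The 10 genes described here are Aim2, Ifi203, Ifi204, Ifi206, Ifi207, Ifi208, Ifi209, Ifi213, Ifi214 and Mndal. They were taken by name from a table of 31017 genes, and all 10 were listed in it. The family was picked because of its difference between the groups compared below, so that difference is given as a description, without a test.

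RNA was sequenced from mouse Th17 cells, a T helper subset that secretes IL-17, which had been differentiated in culture. The 3 control libraries are labelled wild type (WT). The other 3, called KO, come from cells deficient in RTF1, a subunit of the PAF1 complex that travels with RNA polymerase II and is needed for monoubiquitination of histone H2B. The sources used here do not give how or in which cells Rtf1 was removed, the age or strain of the animals, or whether replicates came from separate animals or cultures, so p-values measure the spread between these libraries only.

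AIM2 is a sensor of double-stranded DNA in the cytosol. Once bound to DNA it recruits the adaptor ASC (gene Pycard), which activates caspase-1, and caspase-1 then cleaves pro-IL-18 and gasdermin D. The other p200 genes are mostly known as interferon-induced, and several of their products are nuclear. IFI204 is known to bind the retinoblastoma protein and has been placed upstream of STING.

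Total counts ran from 16489813 to 51271226 in the control libraries and from 19304121 to 35907999 in the KO libraries. Levels are given as CPM, that is as counts after scaling each library to the same total with TMM factors, and fold changes are KO over control. Rtf1 was present at 94.0, 91.2 and 88.3 CPM in control replicates 1, 2 and 3 and at 45.3, 30.4 and 26.2 CPM in KO replicates 1, 2 and 3. That is -1.42 ± 0.19 on the log2 scale (SE; edgeR quasi-likelihood test, adjusted p = 0.000755), so some Rtf1 RNA was still counted in the KO libraries. Of 14268 genes tested, 6574 passed an adjusted p of 0.05 (46.1%), 3305 of them higher in KO (23.2%) and 3269 lower (22.9%, 2170 genes without KO replicate 2). In 4260 genes (29.9%) every KO library lay above every control library. Replicate 3 of each group held 11376 (control) and 5147 (KO) counts over 4 Y-linked genes, against 1 to 3 in each other library. Its part in the results was not tested, and the summed family is given without it below.

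The starts of these genes resemble one another, and the letters are shown so that this can be seen. RefSeq promoters (GRCm38.p6, 250 bases before to 50 after a start) were at hand for 9 members, and there was none for Ifi204. Both strands were searched for the core of the interferon-stimulated response element (ISRE), GAAANNGAA, for the gamma-activated site TTCNNNGAA and for TATAAA. The ISRE core was found in 7 of the 9 members, in 8.56% of all 32851 promoters and in 9.76% of the 27025 genes that have one. In all 7 a core read GAAATCGAA, a set of letters held by 30 promoters in all (0.0913%). TATAAA was in 5 of the 9 (13.6% of all promoters, 15.7% of genes), and TTCNNNGAA was in none (8.3% and 9.55%). Windows of 49 bases follow, 5′ to 3′ on the gene's strand in GRCm38 (mm10), with the 9 bases of the core, or the bases at the same place in Ifi209, in capitals. Each core starts 35 to 79 bases before the transcription start.
Ifi203, chr1:173942499-173942547, minus strand: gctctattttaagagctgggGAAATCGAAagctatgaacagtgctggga
Mndal, chr1:173880195-173880243, minus strand: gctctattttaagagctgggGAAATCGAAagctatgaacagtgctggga
Ifi206, chr1:173491330-173491378, minus strand: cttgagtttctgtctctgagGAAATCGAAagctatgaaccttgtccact
Ifi208, chr1:173673587-173673635, plus strand: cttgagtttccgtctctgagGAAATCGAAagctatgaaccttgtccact
Ifi213, chr1:173599317-173599365, minus strand: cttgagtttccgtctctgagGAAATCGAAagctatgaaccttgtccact
Ifi214, chr1:173536008-173536056, minus strand: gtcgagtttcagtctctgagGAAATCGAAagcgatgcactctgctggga
Ifi209, chr1:173630760-173630808, plus strand: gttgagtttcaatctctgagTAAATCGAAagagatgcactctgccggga
Ifi207, chr1:173741822-173741870, minus strand: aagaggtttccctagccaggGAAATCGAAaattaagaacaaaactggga
The Ifi203 and Mndal windows are identical over all 49 bases, and so are those of Ifi208 and Ifi213. The Ifi206 window differs from that of Ifi208 at 1 base. Ifi209 differs from Ifi214 at 5 bases, of which G1T, counted from 1 at the first base of the core, takes it out of the motif. Ifi203 has another RefSeq start, whose promoter holds no core. Mndal also has another, whose promoter holds a core with other letters. The Aim2 promoter held none of the 3 motifs in this window. A match is a run of letters, and binding was not measured here.

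Aim2, the DNA sensor, was counted at 29.4, 28.7 and 22.7 CPM in the control libraries and at 36.6, 35.6 and 32.2 CPM in the KO libraries. The groups did not overlap, but the distance between them was small: the mean went from 26.9 ± 3.67 to 34.8 ± 2.30 CPM (SD, n = 3), or 0.37 ± 0.14 (SE) on the log2 scale. Aim2 (chr1:173350879-173466040, plus strand) lies at one end of the family. It supplied most p200 counts in control cells, and its log2 fold change ranked 4565 of 14268, whereas Ifi203, Ifi204, Ifi206, Ifi209, Ifi214 and Mndal ranked between 15 and 94. The family was picked on this contrast, and Ifi204, Ifi209 and Ifi214 passed the filter on low counts only through KO. Nothing is read from these ranks.

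Ifi204, whose product binds the retinoblastoma protein, had 1, 6 and 5 counts in the control libraries and 268, 319 and 414 counts in the KO libraries. In KO that amounted to 10.2, 8.52 and 21.05 CPM, against 0.124 CPM or less in each control library. The ratio of pooled KO to pooled control counts, scaled for depth, was 107 (95% counting interval 60.9 to 208). The gene was close to undetected in control cells and present in every KO library, highest in replicate 3. It lies at chr1:173747293-173766943, minus strand.

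Ifi203, a nuclear interferon-inducible protein, reached the highest level of the family in KO. It had 3.59, 2.64 and 0.855 CPM in the control libraries and 121, 115 and 157 CPM in the KO libraries. The means were 2.36 ± 1.39 and 131 ± 23.03 CPM (SD, n = 3), and the log2 fold change was 5.88 ± 0.43 (SE). Relative to their mean, the control libraries differed among themselves by more than the KO libraries did, and control replicate 3 was the lowest. Ifi203 lies at chr1:173920407-173942672, minus strand.

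Mndal, named for its likeness to a human myeloid nuclear differentiation antigen, came after Ifi203 and Aim2 in KO. It was at 0.973, 1.03 and 0.523 CPM in the control libraries and at 27.3, 27.5 and 36.2 CPM in the KO libraries. The means were 0.842 ± 0.278 and 30.3 ± 5.13 CPM (SD, n = 3), and KO exceeded control by 5.19 ± 0.28 (SE) on the log2 scale. As with Ifi203, control replicate 3 was lowest and KO replicate 3 highest. The Mndal model (chr1:173849126-173942491, minus strand) overlaps that of Ifi203, and 37 exonic bases of the same strand belong to both.

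Less is known of the products of the remaining 6 members. Ifi206 (chr1:173468485-173491041, minus strand) was at 0.547, 0.433 and 0.641 CPM in the control libraries and at 11.2, 8.97 and 21.8 CPM in the KO libraries. Its means were 0.541 ± 0.104 and 14.01 ± 6.85 CPM (SD, n = 3), 4.69 ± 0.41 (SE) apart on the log2 scale. Ifi209 (chr1:173630917-173647928, plus strand) was at 0.182, 0.599 and 0.927 CPM in the control libraries and at 10.6, 9.67 and 21.05 CPM in the KO libraries, a log2 fold change of 4.45 ± 0.49 (SE). In both genes KO replicate 3 was well above the other KO libraries, and no control library came near any KO library.

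Ifi207 (chr1:173723427-173741747, minus strand) had no count in any control library and 139, 102 and 182 counts in the KO libraries, or 5.28, 2.72 and 9.25 CPM. Against a floor of 3 counts over the control group the ratio was 181, and the 95% counting limit puts Ifi207 at least 146-fold higher in KO. Ifi214 (chr1:173519717-173535957, minus strand) had 0, 5 and 4 counts in the control libraries and 125, 155 and 131 in the KO libraries, a pooled ratio of 58.5 (95% counting interval 30.5 to 129). These genes were thus read in every KO library from a control level at or near 0.

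Ifi213 (chr1:173566283-173599274, minus strand) had 0, 0 and 1 count in the control libraries and 60, 69 and 91 counts in the KO libraries. Its pooled ratio of 282 has a counting interval of 50.1 to 11189.5, because it rests on 1 control count. Ifi208 (chr1:173673675-173698395, plus strand) had 0, 3 and 1 count against 9, 12 and 4, and its pooled ratio was 8.01 (2.77 to 31.7). Ifi208 stayed scarce in KO, at 0.203 to 0.342 CPM, and did not enter the tests. Intervals cover counting error only.

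In all 10 members every KO library was above every control library, a separation found in 29.9% of the tested genes. The filter on low counts admitted 9 members, and 4 of these (Aim2, Ifi203, Ifi206 and Mndal) had control levels that would have passed by themselves, while the other 5 passed only through KO. Of the 9, 8 were called higher and 0 lower, beside 23.2% and 22.9% of all tested genes, and nothing is read from this because the members were chosen on this contrast. KO replicate 3 was the highest KO library in 8 of the 10, the exceptions being Aim2 and Ifi208, where it was the lowest.

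**Figure D1:**
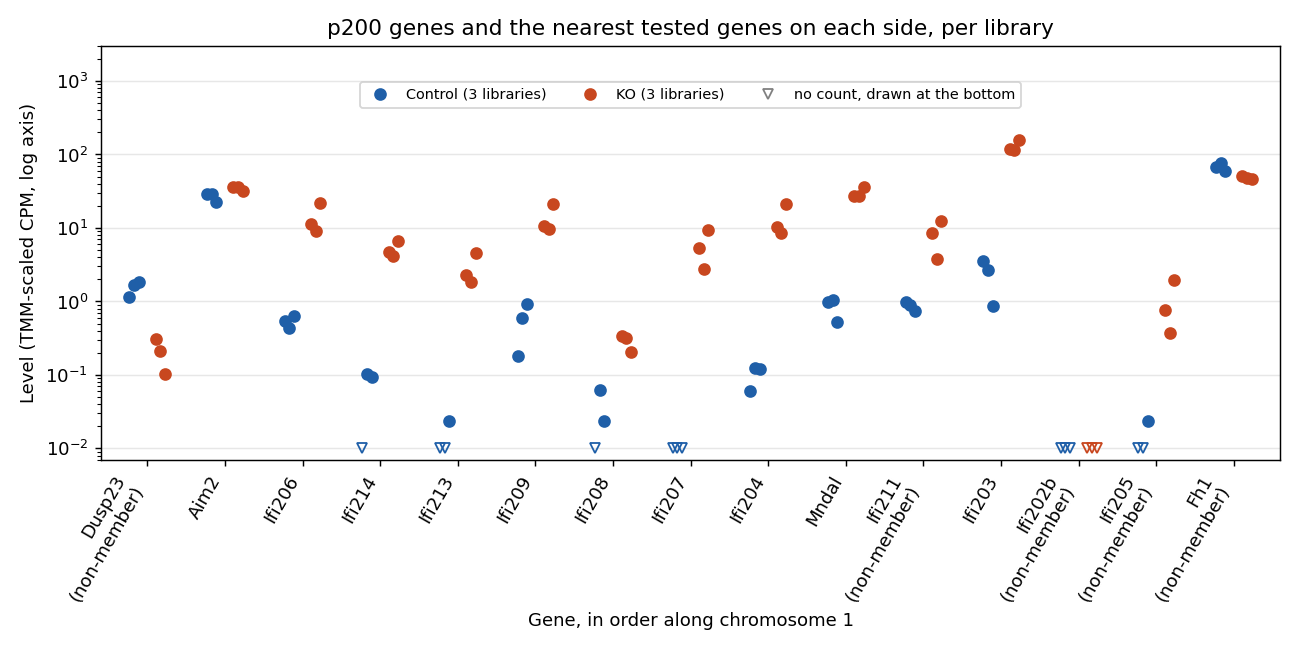
Level of each p200 gene per library, in TMM-scaled CPM on a log axis, with genes in order along chromosome 1 and the nearest tested gene beyond the family on each side; open triangles at the bottom mark libraries with no count. The KO points lie above the control points in every member, closely for Aim2 (22.7 to 29.4 against 32.2 to 36.6 CPM) and far apart for Ifi203 (0.855 to 3.59 against 115 to 157 CPM).

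Because family members share sequence, their counts were also summed. The 10 members together had 34.8, 33.7 and 25.9 CPM in the control libraries and 229, 214 and 311 CPM in the KO libraries. The mean sum went from 31.5 ± 4.81 to 251 ± 51.8 CPM (SD, n = 3), which is 3.0 ± 0.19 (SE) on the log2 scale, or 8.0-fold. With replicates 1 and 2 of each group alone the log2 fold change of the sum was 2.69.

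The sum without Aim2, an arrangement chosen after the values were seen, was 5.35, 4.99 and 3.21 CPM in the control libraries and 192, 179 and 278 CPM in the KO libraries. Its log2 fold change was 5.60 ± 0.26 (SE), or 48.6-fold. Without Ifi203, the member with the most counts, the sum had a log2 fold change of 2.05.

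The make-up of the family's RNA differed between the groups. Aim2 gave 85.8% ± 1.61 of all p200 counts in the control libraries and 14.3% ± 3.43 in the KO libraries (SD, n = 3). Ifi203 was 7.15% ± 3.56 in control and 52.3% ± 1.52 in KO, and Mndal was 2.63% ± 0.545 and 12.1% ± 0.597. Ifi204, Ifi206 and Ifi209 each came to 5.06% to 5.37% in KO, and Ifi207, Ifi214, Ifi213 and Ifi208 to 2.18%, 2.05%, 1.11% and 0.121%.

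The composition of the members other than Aim2 was also compared. Ifi203 was 48.9% ± 20.5 of that smaller sum in control, with libraries from 26.7% to 67.0%, and 61.2% ± 4.11 in KO, with libraries from 56.6% to 64.4%. Mndal was 18.4% ± 2.19 in control and 14.2% ± 1.16 in KO. For Ifi203 the KO range lies inside the control range, and the ranges of Ifi208, Ifi209 and Ifi214 overlap as well. The other 5 did not overlap between groups: the shares of Mndal and Ifi206 (8.68% to 20% in control, 5.02% to 7.83% in KO) were lower in KO, and those of Ifi204 (at most 3.70% in control, at least 4.76% in KO), Ifi207 and Ifi213 were higher. The control shares rest on sums of only 88, 242 and 135 counts, of which Ifi204 had 1, 6 and 5 and Ifi213 had 0, 0 and 1. No counting interval was computed for these shares and no like share over all genes is at hand, so nothing is read from this.

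**Figure D2:**
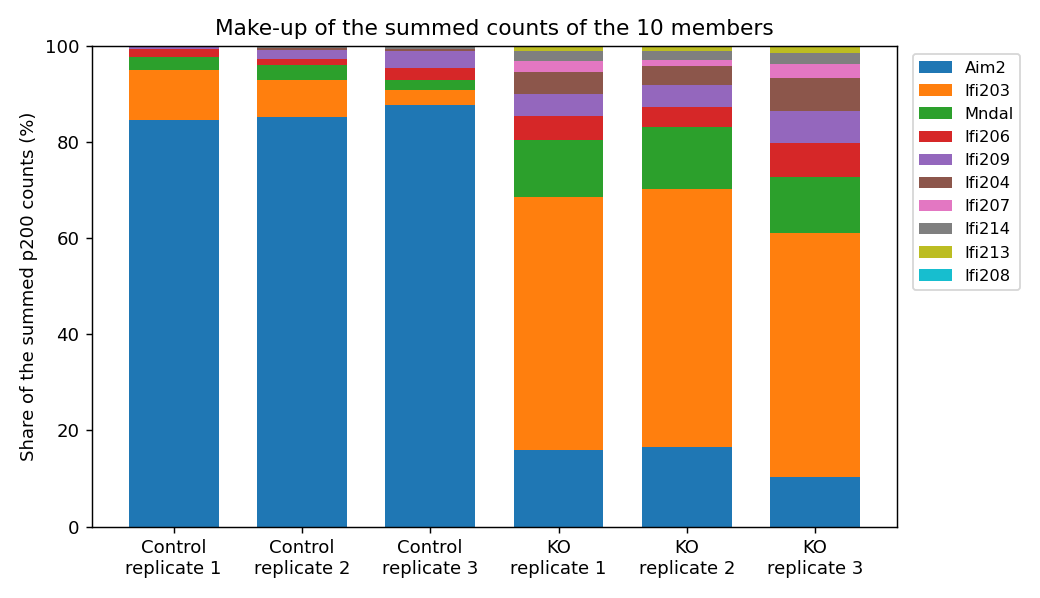
Share of each member in the family's summed counts, in percent, per library, as stacked bars. Aim2 fills most of the 3 control bars (mean 85.8%), and Ifi203 fills about as much of each KO bar as all other members together (mean 52.3%).

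Levels of different genes were compared per kilobase of exon. In control cells Aim2 stood alone at 7.70 ± 1.05 CPM per kb (SD, n = 3). Ifi203, Mndal, Ifi206 and Ifi209 followed at 0.352 ± 0.207, 0.232 ± 0.0768, 0.177 ± 0.0341 and 0.160 ± 0.105 CPM per kb, and each overlapped its neighbour in this order. Ifi204, at 0.0284 ± 0.00984 CPM per kb, was apart from those above and below it, and the remaining members were at 0.00815 CPM per kb or less. Its place above Ifi214, the next gene, rests on 1, 6 and 5 counts against 0, 5 and 4, and counting error was not considered.

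In KO cells the order began with Ifi203 at 19.5 ± 3.43 CPM per kb, apart from the rest. Aim2 (9.95 ± 0.656) and Mndal (8.36 ± 1.42 CPM per kb) overlapped each other and were apart from the next genes. Ifi206, Ifi209 and Ifi204, at 4.59 ± 2.24, 3.89 ± 1.78 and 3.72 ± 1.91 CPM per kb, could not be ordered. Ifi207 (1.68 ± 0.961), Ifi214 (0.639 ± 0.162) and Ifi213 (0.426 ± 0.219 CPM per kb) overlapped their neighbours, and Ifi208 was last and apart at 0.0549 ± 0.0142 CPM per kb. Aim2 thus led in control and Ifi203 in KO, and Ifi208 was near the end of both orders.

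**Figure D3:**
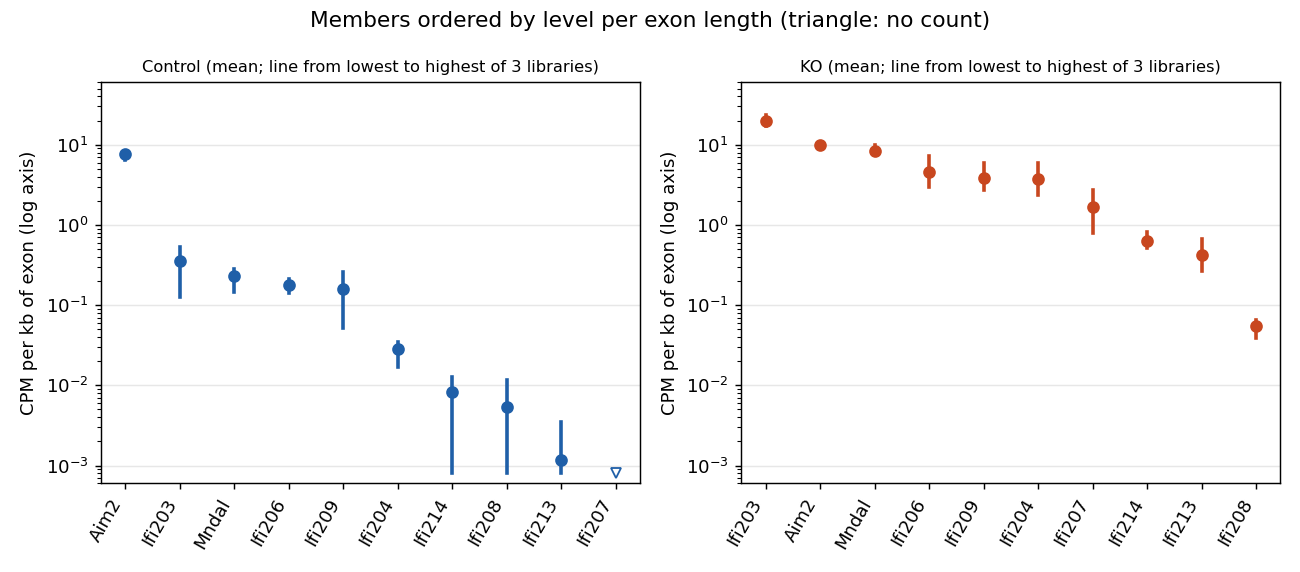
Members ordered by level in each group, in CPM per kb of exon on a log axis; points are means, lines run from the lowest to the highest of 3 libraries (to the bottom of the axis where a library has no count), and a triangle marks a gene with no count. Aim2 leads in control at 7.70 and Ifi203 in KO at 19.5 CPM per kb.

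Counts of single members depend on how reads from near-identical stretches were handled, which is not given in the sources used here. Stretches of 50 bases from each gene's transcripts (GENCODE M21) were looked up in the transcripts of every other gene. Aim2 shared none with another p200 gene. Ifi209 shared the largest part among the members, with 33.4% of its stretches also in Ifi214, which shared 14.5% of its own with Ifi209. Ifi208 shared 18.1% with Ifi213, and Ifi206 shared 11.1% with Ifi208 and 10.9% with Ifi213. Ifi204 shared 14.8% with Ifi211, a p200 gene outside the 10, and 5.44% with Mndal. Ifi203 shared 8.85% with the pseudogene Ifi203-ps and 3.34% with Mndal, so most of its length is its own. Ifi207 shared 7.29% with any other gene.

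In coding sequence the longest runs of identical bases between members were 253 between Ifi209 and Ifi214 and 206 between Ifi206 and Ifi208. Ifi206 and Ifi213 shared a run of 150, Ifi208 and Ifi213 one of 149, and Ifi204 and Mndal one of 138. The identical run found in the most p200 genes has 23 bases and stands in Ifi203, Ifi207 and Mndal and in the non-members Ifi202b, Ifi205 and Ifi211. It is shown in capitals as an example of a shared stretch. The run alone does not tell these genes apart, but a read that extends past it may. Ifi202b, which holds the run, shared none of the longer stretches looked up above with another gene.
Shared coding run, in Ifi203 exon 6 at chr1:173927074-173927096, minus strand: ATGTTTCATGCTACAGTGGCTAC
The same run lies in exon 6 of Ifi207 at chr1:173727677-173727699 and in exon 5 of Mndal at chr1:173862729-173862751, both on the minus strand.

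Apart from Aim2 and Ifi202b, the p200 genes of the table fell into 3 groups that shared no 50-base stretch with a p200 gene of another group. Sums over a group do not depend on how reads were divided within it. They still depend on whether shared reads were counted at all, and on reads shared with genes outside the family, such as the pseudogene Ifi203-ps. Ifi206, Ifi208 and Ifi213 together had 0.547, 0.495 and 0.689 CPM in the control libraries and 13.9, 11.1 and 26.6 CPM in the KO libraries, a log2 fold change of 4.88 ± 0.40 (SE). Ifi209 and Ifi214 together had 0.182, 0.702 and 1.02 CPM in control and 15.4, 13.8 and 27.7 CPM in KO, a log2 fold change of 4.75 ± 0.47 (SE). Ifi203, Ifi204, Ifi207 and Mndal with Ifi205 and Ifi211 had 5.59, 4.69 and 2.26 CPM in control and 173, 158 and 239 CPM in KO, a log2 fold change of 5.55 ± 0.34 (SE). Each group was far higher in every KO library than in any control library. The part of read handling in this difference was not tested. In the promoter windows above, Ifi206, Ifi208 and Ifi213 stand together, and so do Ifi209 and Ifi214. The third group does not: Ifi203 and Mndal are identical there, but Ifi203 differs from Ifi207 at 18 bases and from Ifi214, of another group, at 15.

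**Figure D4:**
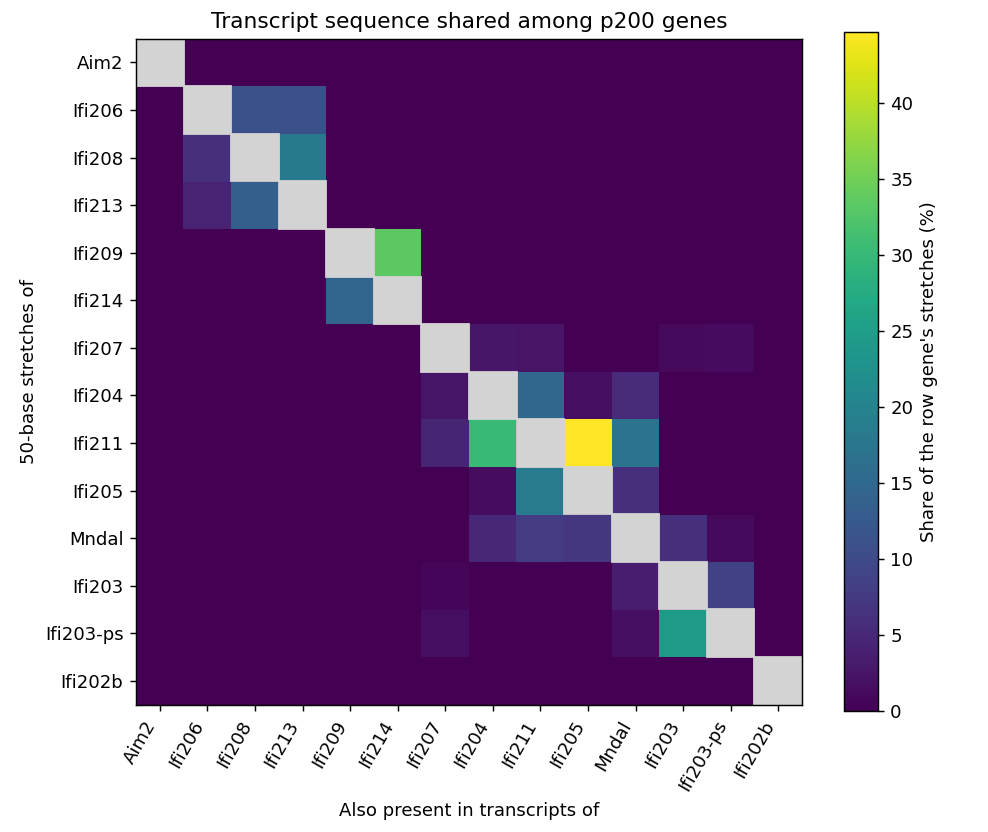
Percentage of a gene's 50-base transcript stretches (rows) that also occur in another p200 gene (columns). Lighter colours are higher percentages, the darkest is 0, and grey is the gene itself. Sharing forms separate blocks, the strongest among members being Ifi209 in Ifi214 (33.4%), while Aim2 shares none.

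Ifi202b, Ifi205 and Ifi211, p200 genes that were not among the 10, lie beside or between them. Ifi211 was at 0.973, 0.887 and 0.737 CPM in the control libraries and at 8.50, 3.79 and 12.6 CPM in the KO libraries, and it was higher in KO by 3.26 ± 0.45 on the log2 scale (SE; adjusted p by edgeR = 0.000846). Ifi205 was counted 0, 0 and 1 time in the control libraries and 20, 14 and 39 times in the KO libraries (pooled ratio 93.6, 95% counting interval 16.3 to 3746.3, edgeR adjusted p = 0.00208). It passed the filter on low counts only through KO, so nothing is read from that p-value. Ifi202b had no count in any library. Ifi211 shares 72.8% of its stretches with other p200 genes, so reads from those stretches cannot be told apart from theirs. The windows of Ifi211 and Ifi205 are shown because their core has other letters than the core in the members' windows.
Ifi211, chr1:173913055-173913103, minus strand: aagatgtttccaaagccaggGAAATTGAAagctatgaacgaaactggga
Ifi205, chr1:174031861-174031909, minus strand: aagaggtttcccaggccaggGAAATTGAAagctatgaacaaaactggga
Both cores match GAAANNGAA, and the windows differ from each other at 4 of 49 bases.

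The family sits in a stretch of chromosome 1 where little else was read. Between the nearest tested non-family genes, Dusp23 and Fh1, lie 2967.41 kb that hold 31 listed genes outside the family. Of these, 24 had no count in any library, 19 were olfactory receptor genes, and the largest count in a library was 24 (Fcer1a). The 19 tested genes nearest the family on its 2 sides lie 718 to 2985 kb from its outermost members. Of these 19, 6 were higher in KO (beside 23.2% of all tested genes), 6 lower (beside 22.9%) and 7 not called. Their median log2 fold change was 0.0068 beside 0.013 over all tested genes. The extremes were Cfap45 at 3.32 (edgeR adjusted p = 0.000418) and Dusp23, a phosphatase gene, at -2.87 (adjusted p = 0.00156). Cfap45 and Kmo, another of the 6 that were higher, passed the filter on low counts only through KO. Dusp23 passed it only through control, so nothing is read from the calls of these genes. Fh1, the fumarate hydratase gene, was lower by a log2 fold change of -0.47 (adjusted p = 0.0130, 0.055 without KO replicate 2). Calls among these distant genes thus went in both directions.

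Genes that act with AIM2 in the inflammasome were taken from a list of 12, of which 9 were tested. Of these 9, 4 rose, 1 fell and 4 did not pass, a median log2 fold change of 0.43 (3 called without KO replicate 2). Casp1, the protease that the inflammasome activates, went from 5.11, 6.13 and 8.62 CPM in control to 28.1, 32.7 and 38.4 CPM in KO, and rose by 2.30 ± 0.22 on the log2 scale (SE; adjusted p by edgeR = 0.000202). Il18, a cytokine precursor that caspase-1 cleaves, went from 7 counts over the control group to 173 over the KO group (pooled ratio 31.7, 95% counting interval 15.1 to 80.0, adjusted p by edgeR = 0.00085). Nlrp1b, another inflammasome sensor, rose from 0.0578 to 0.911 CPM (edgeR adjusted p = 0.00181). Il18 and Nlrp1b are among the 4 that rose. Both passed the filter on low counts only through KO, so nothing is read from their calls.

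Pycard, which encodes the adaptor ASC, moved the other way. It was at 44.7, 51.5 and 46.2 CPM in control and at 32.0, 29.2 and 33.3 CPM in KO, and had a log2 difference of -0.59 ± 0.12 (SE), a decrease that passed (adjusted p by edgeR = 0.00464). Casp8, which ASC can also engage, rose by 0.43 (adjusted p = 0.0213, between 0.0561 and 0.166 when control replicate 1, control replicate 3, KO replicate 2 or KO replicate 3 was left out). Gsdmd, the pore-forming target of caspase-1, had a log2 fold change of 0.43 and did not pass (adjusted p = 0.227). Nlrp3 (1.17, adjusted p = 0.115) and Casp4 (0.39, adjusted p = 0.237) did not pass either, but did with the replicate number as a block (0.0199 and 0.0211 respectively) and without control replicate 3 (0.00535 and 0.0125). Nlrp3 passed the filter on low counts only through KO, so nothing is read from its calls. Il1b, Mefv and Nlrc4 were too low to be tested.

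The cGAS-STING pathway is the other cytosolic route of DNA sensing. Of its 12 listed genes 10 were tested, and 3 rose, 3 fell and 4 did not pass, with a median log2 fold change of 0.20. Tmem173, which encodes STING, was at 93.7, 108 and 83.9 CPM in control and 196, 199 and 235 CPM in KO, a log2 difference of 1.14 ± 0.13 (SE; adjusted p by edgeR = 0.000451). Mb21d1, which encodes the sensor cGAS, was at 12.1, 11.0 and 12.4 CPM in control and 5.47, 5.31 and 4.98 CPM in KO, a log2 difference of -1.17 ± 0.18 (SE; adjusted p by edgeR = 0.00121). Neither pair of groups overlapped, and the adaptor and the sensor went in opposite directions.

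The kinase gene Tbk1 rose by 0.68 and the RNA-editing enzyme gene Adar by 0.83 on the log2 scale (edgeR adjusted p = 0.00178 and 0.00132). Rnaseh2a and Rnaseh2b, subunits of an enzyme that removes ribonucleotides from DNA, fell by 0.84 and 0.88 (adjusted p = 0.00140 and 0.00986). Irf3, Ikbke, Rnaseh2c and Samhd1 did not pass, Samhd1 at an adjusted p of 0.273 (0.0497 with the replicate block, 0.00718 without control replicate 3) and Rnaseh2c at 0.316 (0.0243 without control replicate 3). Ifnb1, which encodes interferon beta, reached at most 0.190 CPM in any library and was not tested, and Trex1 was at 0 in all 6.

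Interferon signalling genes, through which p200 genes are known to be induced, were all tested: of 18, 12 rose, 1 fell and 5 did not pass, with a median log2 fold change of 0.70. The receptor genes Ifnar1 (74.9 ± 4.30 CPM in control and 185 ± 20.3 CPM in KO, SD over 3 libraries; log2 difference 1.30, adjusted p by edgeR = 0.000183), Ifngr1 (1.84, adjusted p = 0.000616) and Ifngr2 (1.18, adjusted p = 0.000524) rose. Ifnar2 rose by 0.41 (adjusted p = 0.0319), a call that was lost without the filter on low counts and on leaving out any 1 of 5 libraries. The transcription factor gene Irf1 was at 27.4, 36.8 and 39.3 CPM in control and 184, 167 and 239 CPM in KO (log2 fold change 2.51 ± 0.19, SE, adjusted p = 7.86e-05).

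Stat2 rose by 1.29 and Irf7 by 2.01 on the log2 scale (edgeR adjusted p = 0.00223 and 0.00567). Irf9, the DNA-binding subunit of the factor that binds the ISRE, rose by 0.48 (adjusted p = 0.0322, lost with upper-quartile scaling and on leaving out any 1 of 4 libraries). The feedback inhibitors Usp18 and Socs3 rose by 1.86 and 1.33 (adjusted p = 0.00167 and 0.000395), while Socs1 had a log2 fold change of 0.045 (adjusted p = 0.734). Jak1 rose by 0.65 and Jak2 fell by 0.44 (adjusted p = 0.00228 and 0.0168, the latter lost on leaving out any 1 of 3 libraries). Ifng, which encodes interferon gamma, was at 0.683 CPM or less in every library and did not pass (adjusted p = 0.422). Irf2 and Irf8 did not pass, but did when the replicate number was a block (at 0.0218 and 0.0364 respectively); Irf2 also did so without control replicate 3 (0.0205).

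Proteins that p200 products are known to bind were read from 6 genes: 1 rose, 4 fell and 1 did not pass, with a median log2 fold change of -0.81. Rb1, the retinoblastoma gene, fell by 0.89 on the log2 scale, with 137 ± 8.31 CPM in control and 74.2 ± 12.5 CPM in KO (SD over 3 libraries; adjusted p by edgeR = 0.00139). E2f1, Npm1 and Myc fell by 1.22, 1.15 and 0.73 on the log2 scale (adjusted p = 0.00330, 0.00209 and 0.00193). Runx2 rose by 0.75 (adjusted p = 0.0135), and Trp53 had a log2 fold change of -0.20 (adjusted p = 0.274, 0.0419 without control replicate 3). Most of these partner genes thus fell while the p200 genes other than Aim2 were higher. The lists are small, and their counts stand beside 46.1% of all tested genes called.

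**Figure D5:**
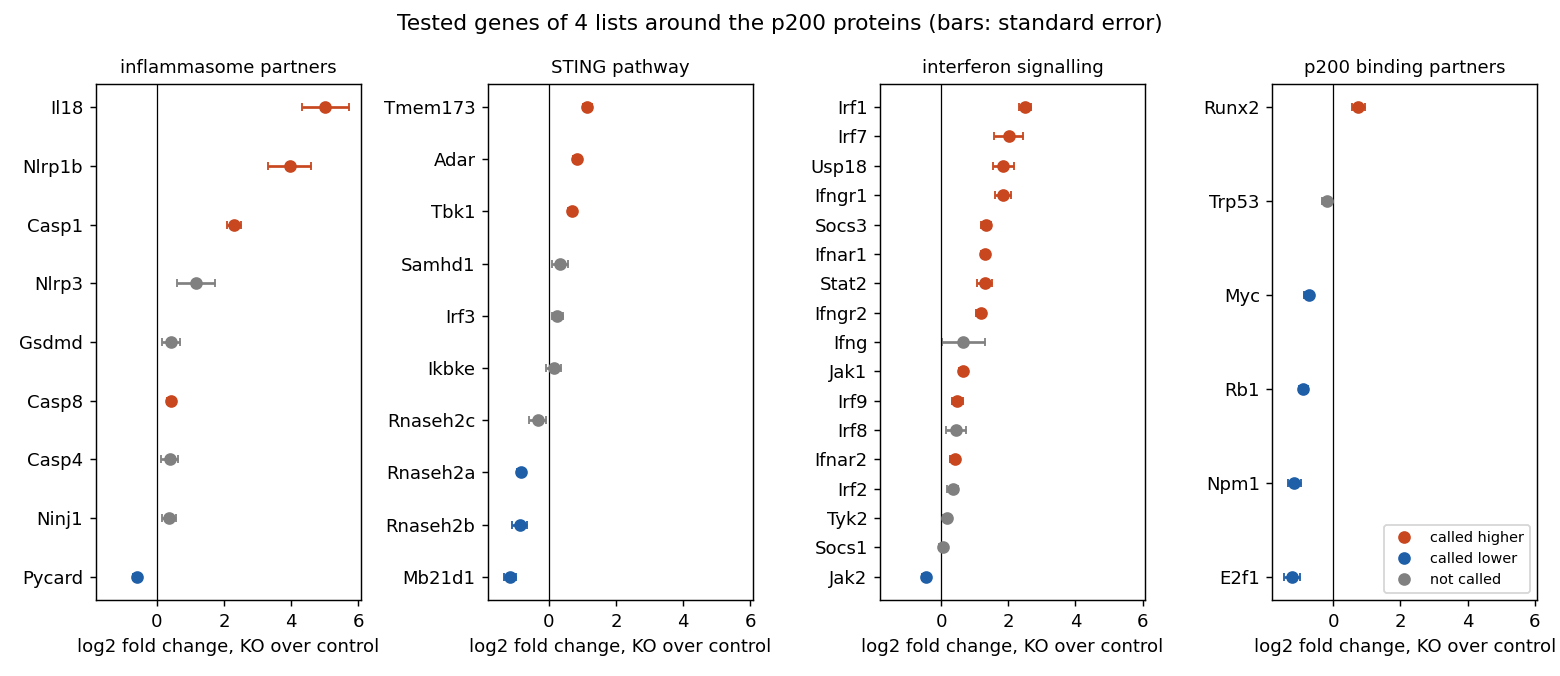
Log2 fold change (KO over control) of tested genes of 4 lists around the p200 proteins, with the standard error as a bar; red points were called higher and blue points lower at an edgeR adjusted p of 0.05, and grey points were not called. Casp1 (2.30) and Irf1 (2.51) lie to the right of zero, and Pycard (-0.59), Mb21d1 (-1.17) and Rb1 (-0.89) to the left.

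Markers were read to see which cells the libraries held, because several p200 genes are known for high expression in myeloid cells. Most T cell and Th17 markers were abundant in both groups. Cd4 had 486 ± 48.6 CPM in control and 254 ± 36.0 CPM in KO (SD over 3 libraries, adjusted p by edgeR = 0.00132). Il17a had 292 ± 63.9 and 92.8 ± 61.6 CPM (edgeR adjusted p = 0.0125), and Cd3e had 199 ± 16.7 and 326 ± 31.9 CPM (edgeR adjusted p = 0.00242). Il23r (means of 27.5 and 10.9 CPM) and Ccr6 (33.3 and 15.0 CPM) were the least abundant of the 10 listed. Of these 10 markers 2 rose and 5 fell, beside 23.2% and 22.9% of all tested genes. Leaving out control replicate 2 gave 4 calls, and leaving out KO replicate 2 gave 3. In bulk RNA, fewer cells of a type and less RNA per cell cannot be told apart.

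The 10 myeloid markers summed to 24.6 to 40.8 CPM in control and 60.1 to 113 CPM in KO. Of the 6 tested, 4 rose (beside 23.2% of all tested genes): Cd68 (1.80 to 4.42 CPM in control, 13.3 to 25.3 in KO), Cd74 (means of 27.2 and 56.1 CPM), Csf1r and Fcer1g. The other 2 tested were not called: Cd14 (means of 0.302 and 0.821 CPM) and Fcgr3 (0.545 and 0.211 CPM). Fcgr3 was lower in every KO library than in any control library. The call of Csf1r was lost on leaving out any 1 of 4 libraries and that of Cd74 on leaving out any 1 of 3. Csf1r and Fcer1g passed the filter on low counts only through KO, so nothing is read from their calls. T cells can also express Cd68 and Cd74. The defining markers Itgam and Adgre1 were at 0.134 CPM or less in every library, and Lyz2 was at 0.0950 CPM or less in control and 0.294 to 1.75 CPM in KO. The 4 myeloid markers that rose were highest in KO replicate 3, as were 8 of the p200 members, and Lyz2 was highest in KO replicate 1. The 6 dendritic cell markers summed to 1.80 to 3.56 CPM in control and 8.73 to 10.6 CPM in KO, of which Xcr1 rose, and Clec9a and Siglech had 1 count each. Zbtb46 (means of 1.82 and 3.75 CPM, not called) and Itgax (0.0340 and 0.488 CPM, not tested) were higher in every KO library. Flt3 (0.352 and 0.296 CPM) was not tested. The B cell list (6 genes) summed to 7.68 to 18.1 CPM in control and 3.66 to 15.2 CPM in KO, the CD8 and NK list (6) to 10.8 to 15.1 and 15.1 to 16.2 CPM, with Ncr1 and Klrb1c at 0 and Eomes rising from 0.0991 to 1.55 CPM (edgeR adjusted p = 0.000946), and the erythroid list (4) to 1.18 to 2.92 and 0.935 to 2.03 CPM. Eomes passed the filter on low counts only through KO, so nothing is read from its call. The part of other cells in the p200 levels was not tested.

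The genes whose pattern was most like that of the summed family were found by the root mean square difference of log2 CPM, centred over the 6 libraries, among genes of at least 5 CPM. They were Rab20 (0.152), Nqo2 (0.166), Hbegf (0.167), Plaur (0.203), Gpr55 (0.236), Il18r1 (0.264), Serpine2 (0.290) and Fam43a (0.303). Their log2 fold changes were between 2.83 and 3.57, around the 3.0 of the sum. The members were farther from their own sum, from 0.861 for Ifi206 to 1.89 for Ifi204 among the 6 with counts in all libraries, with Aim2 at 1.32 and Ifi203 at 1.58. The sum lies between Aim2 and the rest, and no single member follows it.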

How the data were processed

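The authors deposited a table of whole-number counts per gene symbol for 6 libraries, with 0 columns left without a sample. The submitters' processing notes name STAR, featureCounts, DESeq2 and the mm10 build, while versions, annotation, strand and multi-mapping settings are not given in the sources used here. Coordinates and exon lengths came from GENCODE M21, which held 98.2% of the symbols, and promoters from RefSeq. KO was tested against control over the 6 libraries with edgeR 4.0.16 (R 4.3.3): TMM, filterByExpr (14268 genes with 99.9% of counts), quasi-likelihood test, no covariate, Benjamini-Hochberg adjustment over all tested genes and a threshold of 0.05. The standard error is the absolute log2 fold change over the square root of F. Sums were fitted as added rows, and those over groups of genes that share sequence were added after seeing the data.

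The members and lists were chosen with earlier results of these data known. The text names Rtf1, the members, genes of the lists, other p200 genes, called flanking genes and the 8 genes most like the sum. No value of a member is given a p-value. Values of some list genes are not reported here, though the counts over a list include them. The lists cover inflammasome, STING pathway, interferon signalling, p200 binding partners and markers of T, myeloid, dendritic, B, CD8 and NK, and erythroid cells. Alternatives were 4 other scalings, 2 other filters, DESeq2 1.42.0, leaving out each library, replicates 1 and 2 only, other sums and the replicate number as a block. Same-numbered libraries had correlations of deviations of 0.270, 0.130 and 0.379 across genes, the highest for replicate 3, which held the Y-linked counts. Differently numbered ones had -0.390 to 0.204, the highest between control 2 and KO 1. The numbers may thus pair the samples, which the labels do not say, so the block was an alternative and the main fit had none. The biological coefficient of variation was 0.212. The fit was tested on simulated counts.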

Additional observations from a re-analysis of the deposited data

How the results depend on the processing

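Of 93 genes put through the alternatives, 66 kept their direction and their side of the threshold under every alternative run. The 93 include the tested members, the genes most like the sum and the called flanking genes. These were chosen on this contrast, so nothing is read from the count. With the replicate number as a block 7628 genes were called in place of 6574, of which 6555 were shared, and Aim2, Cd3d and Cd14 joined the list genes given above as gained by the block. Cd14 passed the filter on low counts only through KO, so nothing is read from its call. Aim2 passed only with the block (log2 fold change 0.38) and when libraries were scaled by their totals alone (0.46). Over the 15 alternatives the log2 fold change was 5.30 to 6.12 for Ifi203, 4.75 to 5.44 for Mndal and 6.36 to 7.09 for Ifi204. The members were chosen on this contrast, so their calls under the alternatives say nothing of stability. Ifi208 passed the filter in some fits without 1 library, so that 8 to 9 members were called there.

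The log2 fold change of the summed family was 2.82 to 3.11 on leaving out each library, 2.69 with replicates 1 and 2 only, 2.05 without Ifi203, 5.60 without Aim2 and 3.01 with Ifi211 added. Leaving out each library gave 2170 to 3700 genes lower, 3 to 6 inflammasome genes (5 with all libraries) and 3 to 7 T cell and Th17 markers (7 with all). These counts fell lowest without KO replicate 2, and the cause was not tested. Values that changed sign were Ikbke (-0.094 without control replicate 2, up to 0.34 without control replicate 3) and Socs1 (-0.054 and -0.0045 without control replicate 1 or 3, up to 0.067 without KO replicate 1), none of them called. Scaling by totals alone put the median of the tested genes at 0.10 on the log2 scale and took the share of calls that were higher from 50.3% to 57.6%. Depth limits Ifi207, Ifi208, Ifi213 and Ifi214, whose control levels rest on 9 counts or fewer over the group.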

Other observations

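The exact core found in 7 of the p200 promoters, GAAATCGAA, was looked for in the other RefSeq promoters after the windows had been seen, so what follows is a description. Outside the family 14 tested genes held it, of which 8 were called higher in KO (57.1%) and 1 lower (Kat8), with a median log2 fold change of 0.49. Of all 10387 tested genes with a promoter, 23.4% were higher and 24.3% lower. The wider core GAAANNGAA was in 898 tested genes, 26.8% of them higher and 22.3% lower, and TTCNNNGAA in 867, 25.8% higher and 22.5% lower. Among the 8 were Ddx58, which encodes the RNA sensor RIG-I, with a log2 fold change of 1.37 (edgeR adjusted p = 0.00617), and Ripk1, a kinase of cell death and inflammation, with 1.25 (adjusted p = 0.000369). The others were Zkscan6, Serpinb6a, Parp11, Dgkh, Glrx2 and Pnrc1, between 0.48 and 1.15. For Dgkh and Pnrc1 the KO and control libraries overlapped, and none of the 14 genes was put through the alternatives.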
